A study of Mus musculus with 4 samples.

Results

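Transcripts of 36 genes of protein folding were measured by RNA sequencing in sorted mouse regulatory T cells. The genes were picked by symbol as heat shock proteins, subunits of the chaperonin CCT and chaperones of the endoplasmic reticulum (ER), and all 36 were found among the 52636 genes counted. By role they fall into 5 cytosolic HSP70 and HSP110 chaperones, 2 cytosolic HSP90 chaperones, 6 J proteins, co-chaperones and small heat shock proteins, 8 CCT subunits, 9 ER chaperones and 3 stress transcription factors. The remaining 3, Hspa9, Hspd1 and Hspe1, encode chaperones of the mitochondrial matrix, which lie outside the cytosol and the ER.

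The study compared CD4+CD62L+CD25bright regulatory T cells of Vav1R63W mice with a deletion of Themis1 in T cells (Vav1R63W-Themis1-T-/-) with the same cells of Vav1R63W mice. All mice were C57BL/6 and 7 weeks old, and both groups carry the R63W allele of Vav1, which encodes a signalling adaptor of the T cell receptor. Themis1, encoded by Themis, is a signalling protein of T cells. There were 2 libraries per group, numbered 2 and 3, and pairs of values below are given in the order replicate 2, replicate 3. The labels do not name the driver of the deletion, no wild-type group was analysed here, and the labels do not say whether a library came from 1 animal or from a pool. Because they also do not say that replicates came from separate animals, each p-value reflects the spread between libraries and no more, and that spread may be technical.

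Reads assigned to genes numbered 15953194 and 13963670 in the libraries labelled Themis1-deleted and 14003757 and 14398002 in the Vav1R63W libraries. Genes with any read numbered 12049 and 10809 in the libraries labelled Themis1-deleted, against 12011 and 11722 in the Vav1R63W libraries. Themis had 685 and 0 reads (42.9 and 0 CPM, reads per megaread assigned to genes) in the libraries labelled Themis1-deleted, against 283 and 97 reads (20.2 and 6.74 CPM) in the Vav1R63W libraries. The count of replicate 2 therefore goes against its Themis1-deleted label, the directions below are directions between labels, and a gene-level count checks a deletion only where the deleted exons carry reads. Foxp3, the lineage transcription factor of regulatory T cells, was at 1014 and 737 CPM in libraries labelled Themis1-deleted, against 904 and 636 CPM in the Vav1R63W libraries. The neutrophil markers S100a8, S100a9, Ly6g, Elane, Mpo and Camp had no read in any library. Of 8 monocyte and macrophage markers 6 had none. The others included Ctss, at 840 and 1003 CPM in libraries labelled Themis1-deleted, against 735 and 805 CPM in the Vav1R63W libraries. Of 5 NK cell markers 2 had none, and Nkg7 was at 122 and 160 CPM, against 119 and 154 CPM. Of the CD8 T cell markers, Cd8a had none and Cd8b1 was at 30.3 and 19.3 CPM, against 26.1 and 38.5 CPM. Of 8 B cell markers, 3 were without reads throughout, Ms4a1 and Pax5 among them, and the summed level of the 8 was 1363 and 1414 CPM in libraries labelled Themis1-deleted, against 1209 and 1340 CPM in the Vav1R63W libraries. Most of it was the heavy chain gene Ighm, at 1274 and 1307 CPM in libraries labelled Themis1-deleted, against 1111 and 1234 CPM in the Vav1R63W libraries. Cd79b was at 35.5 and 62.7 CPM in libraries labelled Themis1-deleted, against 58.3 and 63.6 CPM in the Vav1R63W libraries, and Cd74 at 51.0 and 43.3 CPM, against 29.3 and 36.3 CPM.

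Chaperones hold unfolded polypeptides, fold them in cycles of ATP binding and hydrolysis, and hand them on to one another. HSP70 proteins take up clients from J proteins and are emptied by exchange factors such as HSP110 and BAG3. HSP90 acts later on kinases and receptors, among them the T cell kinase LCK, and CCT encloses actin, tubulin and other clients in a double ring. The ER has its own HSP70 (BiP), HSP90 (GRP94), lectin chaperones and disulfide isomerases, which the unfolded protein response adjusts to the secretory load through XBP1, ATF4 and CHOP. Heat shock factor 1 drives the inducible cytosolic genes from heat shock elements, and ATF6 and XBP1 drive many ER chaperone genes from ER stress response elements (ERSE).

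The promoters of the members show these arrangements as letters. RefSeq promoters (GRCm38.p6, from 250 bases before to 50 bases after an annotated start) were at hand for 31 of the 36 members, as 39 promoters. Hsp90aa1, Hsp90ab1, Hspa8, Hspa9 and Cct4 had none. The heat shock element was searched as GAANNTTCNNGAA on both strands. It was found for 4 members, Dnajb6, Hspd1, Hspe1 and Hsph1. They make up 12.9% of the 31 genes, against 0.662% of all 27025 genes with a promoter. Per promoter the share was 15.4% of the 39, against 0.603% of all 32851. Some bases are counted more than once in these shares. Hspd1 and Hspe1 share their matched bases, and so do the promoters of Dnajb6 among themselves and those of Hsph1. ERSE was searched as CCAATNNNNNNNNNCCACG on both strands. It was found for 5 members, Calr, Canx, Hsp90b1, Hspa5 and Pdia6, all ER chaperones. That is 16.1% of the 31 genes, against 0.137% of all genes, and per promoter 12.8%, against 0.119%. ERSE is a known element of ER chaperone genes, as described above, so a high share among the members is no new result. The related ERSE-II (ATTGG and CCACG with 1 base between them, both strands) was found among the members for Dnajb11 alone, in 2.56% of the 39 promoters, against 0.0365% of all promoters. These are matches of letters, not measured binding sites, and no match in other members means only that these letters are not in those windows.

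The heat shock element matches that precede a start are shown because the levels of these genes are set beside each other below, with the matched bases in capitals. The mitochondrial pair Hspe1 and Hspd1 is transcribed in opposite directions from a shared region, in which 2 overlapping matches lie. Hspe1 is shown at chr1:55088054-55088081, plus strand, which meets an annotated exon of Hspd1, and the same bases on the minus strand belong to the Hspd1 promoter. Dnajb6 is shown at chr5:29735847-29735869, plus strand, within annotated exons of one of its own transcripts and of Gm5129 on the other strand.
Hspe1: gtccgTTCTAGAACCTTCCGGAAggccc
Dnajb6: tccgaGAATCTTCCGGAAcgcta

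The ERSE matches are shown because they single out ER chaperones among the members, again with the matched bases in capitals. Hspa5 lies at chr2:34772020-34772048 (plus), Calr at chr8:84847045-84847123 (minus), Hsp90b1 at chr10:86705528-86705661 (minus), Canx at chr11:50325770-50325848 (minus) and Pdia6 at chr12:17266461-17266539 (plus). The Hspa5 stretch meets an annotated exon of Hspa5 itself. Hsp90b1 holds 2 matches, 1 on each strand, and the Calr match reads on the strand opposite to the gene.
Hspa5: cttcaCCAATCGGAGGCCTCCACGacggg
Calr: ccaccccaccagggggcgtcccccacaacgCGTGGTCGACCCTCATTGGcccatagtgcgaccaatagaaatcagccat
Hsp90b1: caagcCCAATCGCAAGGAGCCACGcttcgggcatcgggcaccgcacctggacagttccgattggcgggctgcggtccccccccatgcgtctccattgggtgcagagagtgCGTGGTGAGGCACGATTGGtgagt
Canx: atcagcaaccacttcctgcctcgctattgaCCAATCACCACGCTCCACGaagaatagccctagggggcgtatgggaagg
Pdia6: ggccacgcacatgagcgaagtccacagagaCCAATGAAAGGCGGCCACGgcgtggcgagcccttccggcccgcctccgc

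No chaperone gene passed the test between the groups. Most of the constitutive chaperones were abundant in all 4 libraries, and the stress-inducible HSP70 genes Hspa1a and Hspa1b were at 9.38 CPM at most. Together the 36 genes took 1.33% and 1.25% of the assigned reads in the libraries labelled Themis1-deleted, against 1.33% and 1.36% in the Vav1R63W libraries. Of the 36, 34 had enough reads to be tested and 2, Hspa1a and Bag3, did not. With edgeR's quasi-likelihood test 0 of the 34 had an adjusted p under 0.05 (Benjamini-Hochberg, over all genes tested), on a background of 0% of 10216 tested genes. The smallest adjusted p among the members was 0.903. At an unadjusted p under 0.05 there were 4 members (Hsp90aa1, Cct2, Dnaja1 and Cct4), all lower in the libraries labelled Themis1-deleted, against 4.98% of all tested genes.

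The other tests gave no member either. DESeq2 called 0 of the 35 members it gave an adjusted p (smallest 0.429), while it called 1.92% of 10748 genes. The authors' deposited table, also from DESeq2, called 0 of the 32 members with an adjusted p there (smallest 0.0940, for Hsp90aa1), with 1.56% of 7865 genes called. With limma-voom 0 were called, and 7 members and 483 genes in all were under an unadjusted p of 0.05.

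The members differed between the groups by less than genes at large. Log2 fold changes (libraries labelled Themis1-deleted over Vav1R63W) were positive for 19 members and negative for 15. Their median was 0.04, with an interquartile range of -0.29 to 0.28, beside 0.00 and -0.55 to 0.50 over all tested genes. The median size regardless of sign was 0.30 for the members and 0.52 for all tested genes. Members were also expressed more highly, at a median level of 254 CPM beside 27.4 CPM for all tested genes. Replicates of a member lay closer together: the median difference between replicates, on the log2(CPM + 1) scale, was 0.24 in the libraries labelled Themis1-deleted and 0.22 in Vav1R63W, beside 0.77 and 0.60 for all tested genes.

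For 15 members the 2 groups of libraries did not overlap in CPM. In 6 of them both libraries labelled Themis1-deleted were higher (Hsp90ab1, Hspb1, Tcp1, Cct3, Cct6a and Canx), where 15.1% of all tested genes did so. In 9 both were lower (Hsp90aa1, Dnajb1, Dnaja1, Dnaja2, Cct2, Cct4, Cct8, Xbp1 and Atf4), where 18.7% of all tested genes did so. That is 44.1% of the tested members in both directions, beside 33.8% of all tested genes, and 13 members when the library totals are scaled by TMM, Dnajb1 and Cct8 then overlapping.

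**Figure D1:**
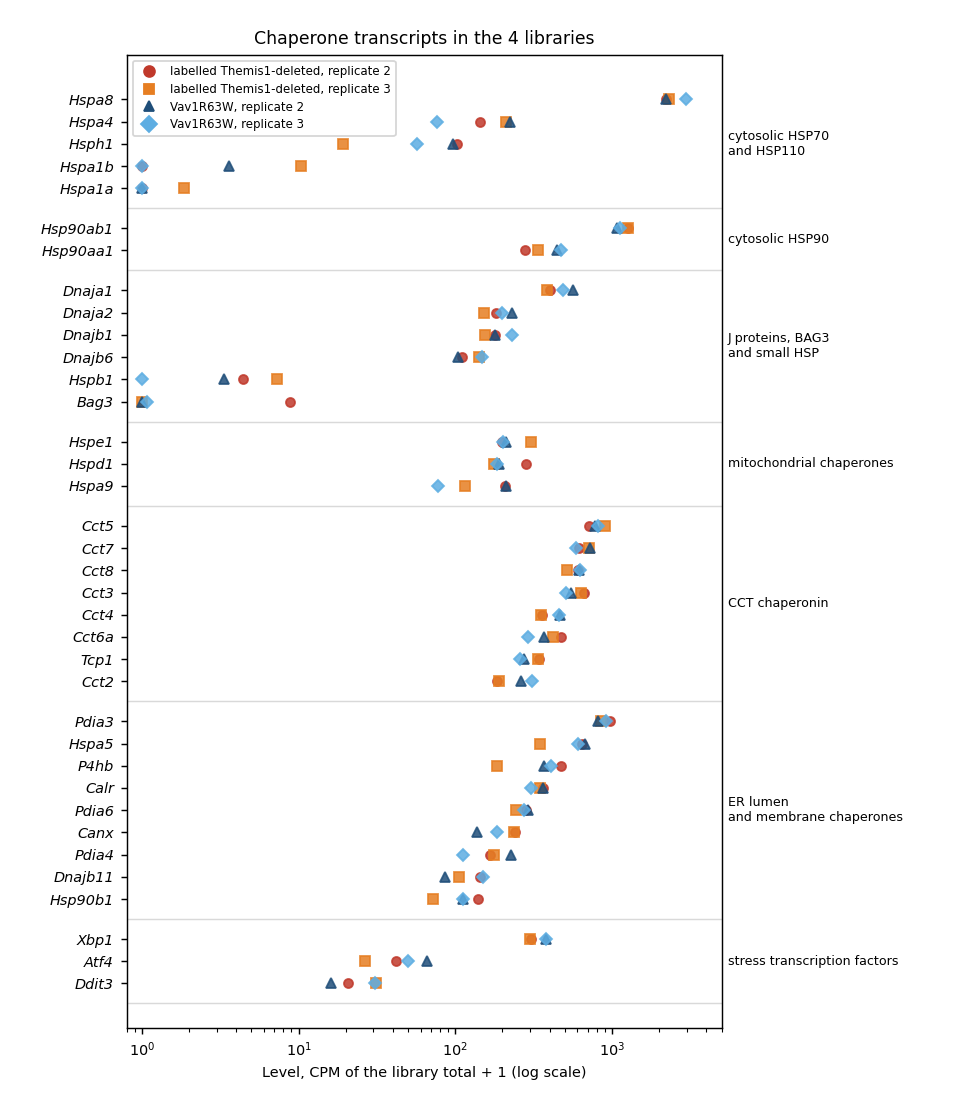
Levels of the 36 genes in each of the 4 libraries, as CPM of the library total plus 1 on a log scale, grouped by role; circles and squares are the libraries labelled Themis1-deleted (replicates 2 and 3), triangles and diamonds the Vav1R63W libraries (replicates 2 and 3). Hspa8 lies highest, at 2196 and 2318 CPM in libraries labelled Themis1-deleted and 2223 and 2979 CPM in Vav1R63W, while Hspa1a, Hspa1b, Bag3 and Hspb1 lie near the lower end of the axis.

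**Figure D2:**
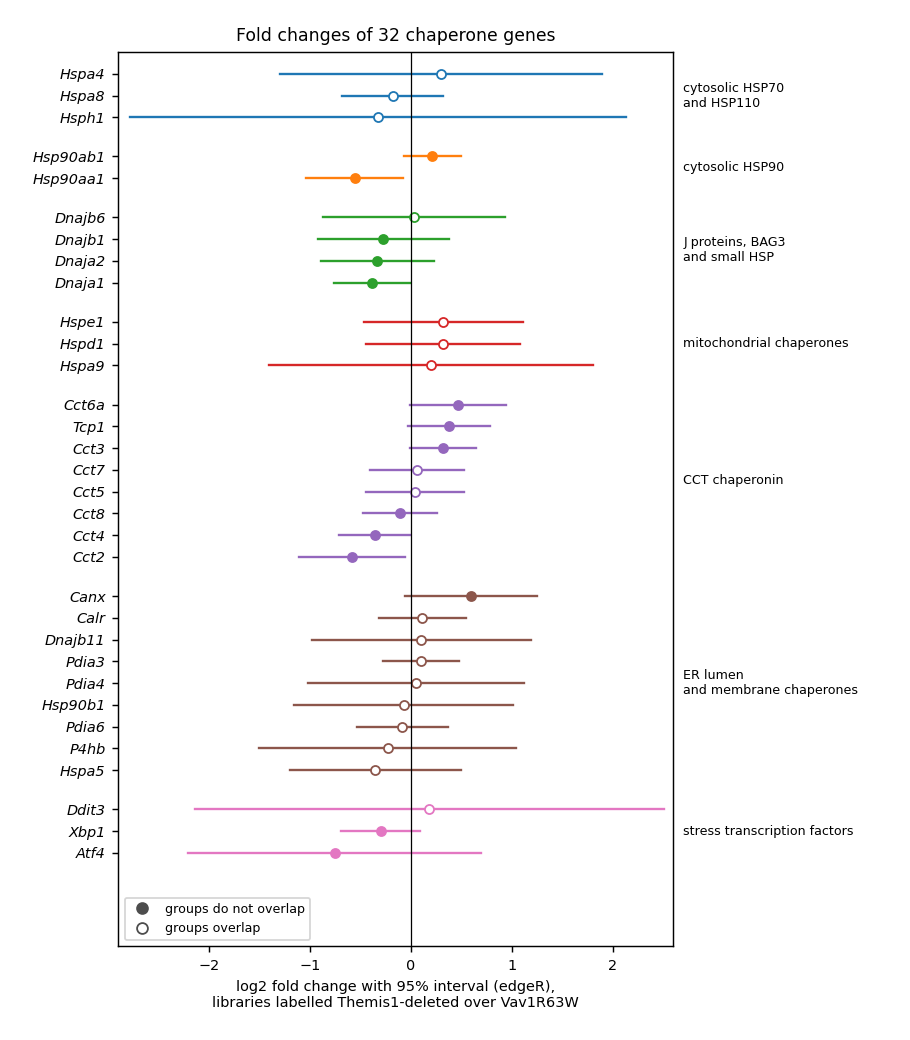
The log2 fold changes of 32 tested members with 95% intervals from edgeR, libraries labelled Themis1-deleted over Vav1R63W, coloured by role; filled points mark members whose groups do not overlap, and Hspa1b and Hspb1 are left out because their intervals leave the axis. The intervals of Hsp90aa1, Dnaja1, Cct2 and Cct4 lie below 0, and no member passed after adjustment.

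Among cytosolic HSP70 proteins the constitutive gene dominated and the inducible ones were at the edge of detection. Hspa8 (ENSMUSG00000015656, chromosome 9, 40800984 to 40810087 on GRCm38, plus strand) encodes HSC70, the constitutive HSP70 of the cytosol. It was the most abundant member per length, at a mean of 1015 CPM per kilobase of transcript over the 4 libraries. Its level was 2196 and 2318 CPM in libraries labelled Themis1-deleted, against 2223 and 2979 CPM in the Vav1R63W libraries. The groups overlapped, with 1 Vav1R63W library above the other 3, and the log2 fold change was -0.18 ± 0.18 (SE, adjusted p = 1.00 by edgeR).

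Hspa1a (ENSMUSG00000091971, chromosome 17, 34969190 to 34972156, minus strand) and Hspa1b (ENSMUSG00000090877, chromosome 17, 34956436 to 34959238, minus strand) encode the heat-inducible HSP70. Hspa1a had 0 and 12 reads in the libraries labelled Themis1-deleted, against 0 and 0 in the Vav1R63W libraries. Hspa1b had 0 and 131 reads in the libraries labelled Themis1-deleted, against 36 and 0 in the Vav1R63W libraries. Wherever a group had reads of either gene, they came from 1 of its 2 libraries. The 2 genes share sequence: 54.2% of the 75-base windows of the Hspa1a transcript and 55.8% of those of Hspa1b recur in other genes, mostly in each other, and reads from such windows map to several places and were not counted. The fitted log2 fold change of Hspa1b, 1.93 ± 3.53 (SE, adjusted p = 1.00 by edgeR), rests on 1 library per group.

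Hspa4 and Hsph1 encode HSP110 proteins, which release ADP from HSP70. Hspa4 was at 143 and 211 CPM in libraries labelled Themis1-deleted, against 221 and 75.5 CPM in the Vav1R63W libraries. Hsph1, whose promoter holds a heat shock element match just after its start, was at 101 and 18.1 CPM in libraries labelled Themis1-deleted, against 95.3 and 56.0 CPM in the Vav1R63W libraries. For both the Vav1R63W replicates lay further apart than the group means, and the log2 fold changes were 0.30 ± 0.59 for Hspa4 and -0.33 ± 0.90 for Hsph1 (SE). Summed over the 5 genes of this role, levels were 2441 and 2557 CPM in libraries labelled Themis1-deleted, against 2542 and 3110 CPM in the Vav1R63W libraries.

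The cytosolic HSP90 genes went opposite ways in these libraries while their sum stayed in one range. Hsp90aa1 (ENSMUSG00000021270, chromosome 12, 110690605 to 110702728, minus strand) encodes the stress-inducible HSP90 alpha. It was at 279 and 335 CPM in libraries labelled Themis1-deleted, against 447 and 473 CPM in the Vav1R63W libraries. No library of one group lay within the range of the other, at means of 307 ± 39.7 and 460 ± 18.2 CPM (SD, n = 2 each). The log2 fold change was -0.56 ± 0.18 (SE; 95% interval -1.04 to -0.08), with an adjusted p of 0.903 by edgeR, 0.429 by DESeq2 and 0.0940 in the authors' deposited table. Leaving out each library in turn gave log2 fold changes from -0.73 to -0.42.

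Hsp90ab1 (ENSMUSG00000023944, chromosome 17, 45567775 to 45573271, minus strand) encodes the constitutive HSP90 beta and was second per length, at 469 CPM per kilobase. Its level was 1256 and 1260 CPM in libraries labelled Themis1-deleted, against 1082 and 1127 CPM in the Vav1R63W libraries. The groups did not overlap, and the log2 fold change was 0.21 ± 0.10 (SE, adjusted p = 1.00 by edgeR). Per kilobase, Hsp90aa1 made up 14.6% and 16.9% of both cytosolic HSP90 genes in the libraries labelled Themis1-deleted, against 24.1% and 24.4% in the Vav1R63W libraries. The plain sum of both genes was 1534 and 1595 CPM in libraries labelled Themis1-deleted, against 1530 and 1600 CPM in the Vav1R63W libraries.

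Some of these counts depend on how reads with several matches were handled. Of the 75-base windows of the principal transcript, 53.1% recur in other genes for Hsp90aa1 and 68.0% for Hspa8, mostly in processed pseudogenes, but 0.736% for Hsp90ab1 and none for any CCT subunit. Reads with several matches were 8.94% and 8.24% of all reads in the libraries labelled Themis1-deleted, against 7.86% and 7.39% in the Vav1R63W libraries, and were not counted to genes. The share moved with the label, and its part in the Hsp90aa1 difference was not tested. Gm12346, the pseudogene that shares most windows with Hsp90aa1, had 14 and 15 reads in the libraries labelled Themis1-deleted, against 10 and 16 in the Vav1R63W libraries. Reads that match both genes are counted to neither, so these counts cannot show how many such reads there were.

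J proteins stimulate the ATPase of HSP70 and bring it clients. Dnaja1 (ENSMUSG00000028410, chromosome 4, 40722150 to 40737149, plus strand), a J protein of class A, was at 401 and 385 CPM in libraries labelled Themis1-deleted, against 562 and 485 CPM in the Vav1R63W libraries. Again the groups did not overlap, at means of 393 ± 11.6 and 524 ± 54.2 CPM (SD, n = 2 each), and the log2 fold change was -0.39 ± 0.14 (SE, adjusted p = 0.987 by edgeR). Dnaja2 (ENSMUSG00000031701, chromosome 8, 85537633 to 85555344, minus strand), its class A relative, was at 181 and 153 CPM in libraries labelled Themis1-deleted, against 230 and 198 CPM in the Vav1R63W libraries, a log2 fold change of -0.33 ± 0.21 (SE, adjusted p = 1.00 by edgeR).

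The class B J proteins differed less. Dnajb1, the main J partner of inducible HSP70, was at 179 and 153 CPM in libraries labelled Themis1-deleted, against 179 and 228 CPM in the Vav1R63W libraries. The nearest libraries of the groups differ there only past the printed digits, and the groups overlap once library totals are scaled by TMM. Dnajb6, which keeps aggregation-prone proteins soluble and carries the heat shock element shown above, was at 110 and 140 CPM in libraries labelled Themis1-deleted, against 103 and 147 CPM in the Vav1R63W libraries. That is no difference beyond the replicates, with a log2 fold change of 0.03 ± 0.33 (SE).

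The remaining co-chaperones of this role were barely expressed. Bag3, an exchange factor of HSP70 in selective autophagy, had 124 and 0 reads in the libraries labelled Themis1-deleted, against 0 and 1 in the Vav1R63W libraries, so that 1 library held nearly all of its reads. Hspb1, which encodes the small heat shock protein known as HSP27 in man, had 55 and 88 reads in the libraries labelled Themis1-deleted, against 33 and 0 in the Vav1R63W libraries. Its 2 groups did not overlap, at a level where single libraries drop to 0, and the log2 fold change was 2.09 ± 2.56 (SE, adjusted p = 1.00 by edgeR). Summed over the 6 genes of this role, levels were 883 and 837 CPM in libraries labelled Themis1-deleted, against 1076 and 1058 CPM in the Vav1R63W libraries.

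The mitochondrial chaperones overlapped between the groups, and for all 3 the libraries labelled Themis1-deleted lay further apart than the group means. Hspe1 (ENSMUSG00000073676, chromosome 1, 55088132 to 55091307, plus strand) encodes HSP10, the lid of the mitochondrial chaperonin, and Hspd1 encodes its ring, HSP60. Hspe1 was at 197 and 305 CPM in libraries labelled Themis1-deleted, against 209 and 202 CPM in the Vav1R63W libraries. Hspd1 was at 282 and 176 CPM in libraries labelled Themis1-deleted, against 189 and 184 CPM in the Vav1R63W libraries. The highest library was thus labelled Themis1-deleted for both, replicate 3 for Hspe1 and replicate 2 for Hspd1. Per kilobase, Hspe1 over Hspd1 was 2.18 and 5.44 in the libraries labelled Themis1-deleted, against 3.46 and 3.43 in the Vav1R63W libraries.

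The log2 fold changes were 0.32 ± 0.29 for Hspe1 and 0.32 ± 0.28 for Hspd1 (SE, adjusted p = 1.00 for each by edgeR). Reads of the pair can be misplaced, since their exons overlap, 23.7% of the windows of Hspe1 and 33.7% of those of Hspd1 recur in other genes, and strand was not used in counting. Hspa9, the mitochondrial HSP70 that drives protein import, was at 207 and 114 CPM in libraries labelled Themis1-deleted, against 209 and 76.3 CPM in the Vav1R63W libraries. In both groups replicate 2 was the higher one for Hspa9, and its log2 fold change was 0.20 ± 0.59 (SE).

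The chaperonin CCT is built from 8 different subunits, 1 copy of each in either ring. The order of the groups differed among their transcripts: 3 subunits were higher and 3 lower in both libraries labelled Themis1-deleted, and 2 overlapped. Of all tested genes, 15.1% were higher and 18.7% lower in this way. Cct8, among the lower ones, overlaps under TMM scaling. The summed level of the 8 genes per kilobase was 1795 and 1859 CPM in libraries labelled Themis1-deleted, against 1829 and 1763 CPM in the Vav1R63W libraries, so the groups overlapped in the sum. None of the 8 was called by edgeR, and the median log2 fold change of the 8 was 0.05.

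The lower subunits were Cct2, Cct4 and Cct8. Cct2 (ENSMUSG00000034024, chromosome 10, 117051001 to 117063814, minus strand), which encodes subunit beta, was at 185 and 188 CPM in libraries labelled Themis1-deleted, against 262 and 307 CPM in the Vav1R63W libraries. Its means were 186 ± 2.07 and 284 ± 31.9 CPM (SD, n = 2 each), with a log2 fold change of -0.58 ± 0.19 (SE; 95% interval -1.11 to -0.06; adjusted p = 0.921 by edgeR). Cct4 (ENSMUSG00000007739, chromosome 11, 22990519 to 23003780, plus strand), subunit delta, was at 358 and 350 CPM in libraries labelled Themis1-deleted, against 464 and 461 CPM in the Vav1R63W libraries. Replicates of Cct4 were close, at means of 354 ± 5.91 and 462 ± 2.21 CPM (SD, n = 2 each), and the log2 fold change was -0.36 ± 0.13 (SE; adjusted p = 0.993 by edgeR), or -0.38 to -0.34 with each library left out. Cct8, subunit theta, was at 610 and 517 CPM in libraries labelled Themis1-deleted, against 610 and 624 CPM in the Vav1R63W libraries, and like Dnajb1 it overlaps under TMM scaling.

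The higher subunits were Cct6a, Tcp1 and Cct3. Cct6a (ENSMUSG00000029447, chromosome 5, 129786998 to 129846371, plus strand), subunit zeta, was at 473 and 420 CPM in libraries labelled Themis1-deleted, against 369 and 289 CPM in the Vav1R63W libraries, a log2 fold change of 0.47 ± 0.18 (SE, adjusted p = 1.00 by edgeR). Cct3 (ENSMUSG00000001416, chromosome 3, 88297116 to 88321767, plus strand), subunit gamma, was at 662 and 632 CPM in libraries labelled Themis1-deleted, against 548 and 507 CPM in the Vav1R63W libraries, a log2 fold change of 0.32 ± 0.12 (SE, adjusted p = 1.00 by edgeR). The groups did not overlap for either gene, and neither gene passed over all genes.

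Tcp1 (ENSMUSG00000068039, chromosome 17, 12915701 to 12925067, plus strand), subunit alpha, was at 341 and 335 CPM in libraries labelled Themis1-deleted, against 273 and 258 CPM in the Vav1R63W libraries. The log2 fold change of Tcp1 was 0.38 ± 0.15 (SE, adjusted p = 1.00 by edgeR). Exons of Mrpl18, Acat3 and Gm26130 overlap 16.9% of the exon length of Tcp1, and the 2 strand-specific count columns together hold 1.504 times the unstranded count, and STAR leaves reads that overlap genes of both strands out of the unstranded count. The log2 fold change was 0.21 and 0.26 in those columns.

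Cct5, subunit epsilon, was the most abundant subunit per kilobase (432 CPM per kilobase), after Hspa8 and Hsp90ab1 among all members. Its level was 709 and 898 CPM in libraries labelled Themis1-deleted, against 777 and 818 CPM in the Vav1R63W libraries, a log2 fold change of 0.04 ± 0.18 (SE, adjusted p = 1.00 by edgeR). Cct7, subunit eta, overlapped as well, at 615 and 717 CPM in libraries labelled Themis1-deleted, against 720 and 584 CPM in the Vav1R63W libraries. As a share of the summed CCT level per kilobase, Cct2 was 5.26% and 5.16% in the libraries labelled Themis1-deleted, against 7.30% and 8.88% in the Vav1R63W libraries. The share of Cct6a was 10.7% and 9.21% in the libraries labelled Themis1-deleted, against 8.23% and 6.69% in the Vav1R63W libraries.

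**Figure D3:**
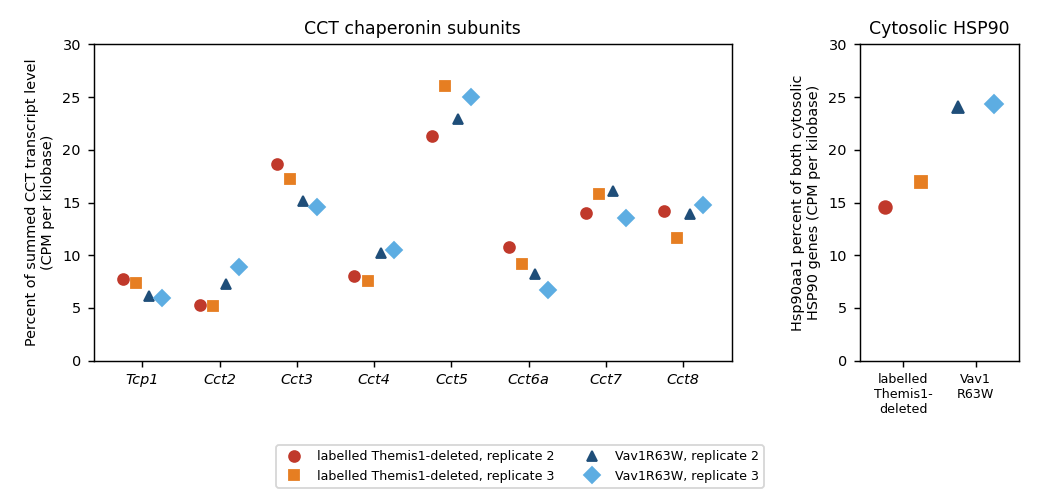
Left, the share of each subunit in the summed CCT transcript level (CPM per kilobase, percent) in each library; right, the share of Hsp90aa1 in the level of both cytosolic HSP90 genes on the same scale; circles and squares are the libraries labelled Themis1-deleted, triangles and diamonds the Vav1R63W libraries. The libraries labelled Themis1-deleted lie below the Vav1R63W libraries for Cct2 and Cct4 and for Hsp90aa1 (14.6% and 16.9%, against 24.1% and 24.4%), and above them for Tcp1, Cct3 and Cct6a.

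Among the 9 ER chaperones Canx alone separated the groups, where 33.8% of all tested genes did so. The library labelled Themis1-deleted, replicate 3, was the lowest for 4 of the 9. The 4 are Hspa5, Hsp90b1, Pdia6 and P4hb. This library was the lowest of the 4 for 34.8% of all tested genes and for 13 of the 34 tested members. The summed level of the 9 genes was 3416 and 2552 CPM in libraries labelled Themis1-deleted, against 3066 and 3057 CPM in the Vav1R63W libraries. Replicate 3 thus lay below, and replicate 2 above, both Vav1R63W libraries.

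Hspa5 (ENSMUSG00000026864, chromosome 2, 34771970 to 34777547, plus strand) encodes BiP, the HSP70 of the ER and a standard readout of ER stress, and has the ERSE shown above. It was at 639 and 347 CPM in libraries labelled Themis1-deleted, against 672 and 603 CPM in the Vav1R63W libraries. Replicate 2 lay between the Vav1R63W libraries and replicate 3 below all, so the groups overlapped. The log2 fold change was -0.35 ± 0.31 (SE, adjusted p = 1.00 by edgeR), and it was -0.83 with replicate 2 of the Themis1-deleted label left out and 0.00 with replicate 3 left out.

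P4hb, a disulfide isomerase, was at 468 and 184 CPM in libraries labelled Themis1-deleted, against 367 and 406 CPM in the Vav1R63W libraries. The libraries labelled Themis1-deleted were its highest and its lowest, with a log2 fold change of -0.23 ± 0.47 (SE). Hsp90b1, which encodes GRP94, the HSP90 of the ER, was at 138 and 71.1 CPM in libraries labelled Themis1-deleted, against 111 and 112 CPM in the Vav1R63W libraries. It too was both highest and lowest in the libraries labelled Themis1-deleted, and its counts are uncertain because exons of 3 genes overlap 15.7% of its exon length.

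Canx (ENSMUSG00000020368, chromosome 11, 50293961 to 50325673, minus strand) encodes calnexin, the membrane-bound lectin chaperone that retains unfolded glycoproteins, T cell receptor chains among them. It was at 240 and 237 CPM in libraries labelled Themis1-deleted, against 137 and 184 CPM in the Vav1R63W libraries. The groups did not overlap, at means of 239 ± 1.89 and 160 ± 33.2 CPM (SD, n = 2 each), and the log2 fold change was 0.60 ± 0.24 (SE; 95% interval -0.06 to 1.25; adjusted p = 1.00 by edgeR). Its soluble relative Calr, calreticulin, was at 363 and 345 CPM in libraries labelled Themis1-deleted, against 363 and 304 CPM in the Vav1R63W libraries, and the groups overlapped.

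Pdia3 (ENSMUSG00000027248, chromosome 2, 121413775 to 121438687, plus strand), the disulfide isomerase that works with calnexin and calreticulin, was the most abundant ER member, at 320 CPM per kilobase. It was at 977 and 846 CPM in libraries labelled Themis1-deleted, against 812 and 916 CPM in the Vav1R63W libraries, with interleaved libraries and a log2 fold change of 0.10 ± 0.14 (SE, adjusted p = 1.00 by edgeR). The remaining ER members overlapped too. Dnajb11, the J protein of BiP, was at 143 and 104 CPM in libraries labelled Themis1-deleted, against 85.5 and 148 CPM in the Vav1R63W libraries. Pdia4 was at 166 and 175 CPM in libraries labelled Themis1-deleted, against 226 and 111 CPM in the Vav1R63W libraries. Pdia6, another isomerase, was at 281 and 243 CPM in libraries labelled Themis1-deleted, against 292 and 273 CPM in the Vav1R63W libraries. The 5 genes with an ERSE match did not share a direction, since the log2 fold change was positive for Calr and Canx and negative for Hspa5 and Pdia6; that of Hsp90b1 was -0.07 in the unstranded column, and 0.01 and 0.05 in the strand columns.

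Of the stress transcription factors, Xbp1 and Atf4 were lower in both libraries labelled Themis1-deleted, where 18.7% of all tested genes were so. Ddit3 overlapped, and none of these factors passed. Xbp1 (ENSMUSG00000020484, chromosome 11, 5520659 to 5525893, plus strand), spliced by IRE1 in the unfolded protein response, was at 303 and 300 CPM in libraries labelled Themis1-deleted, against 377 and 379 CPM in the Vav1R63W libraries. Its means were 302 ± 2.28 and 378 ± 1.40 CPM (SD, n = 2 each). The group means lay further apart than the replicates, but 2 libraries per group measure a spread poorly. Over all genes the log2 fold change of -0.30 ± 0.14 (SE) did not pass (adjusted p = 1.00 by edgeR). That test moderates the spread of a gene towards that of genes of like level. Gene counts do not tell spliced from unspliced Xbp1.

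Atf4 (ENSMUSG00000042406, chromosome 15, 80255184 to 80257541, plus strand), translated when eIF2 alpha is phosphorylated, was at 40.9 and 25.4 CPM in libraries labelled Themis1-deleted, against 64.6 and 49.1 CPM in the Vav1R63W libraries. The groups did not overlap, and the log2 fold change was -0.76 ± 0.54 (SE, adjusted p = 1.00 by edgeR). Ddit3 (ENSMUSG00000025408, chromosome 10, 127290774 to 127296288, plus strand), which encodes CHOP, was at 19.8 and 30.1 CPM in libraries labelled Themis1-deleted, against 15.2 and 29.5 CPM in the Vav1R63W libraries. In both groups replicate 3 was the higher for Ddit3, and the log2 fold change was 0.18 ± 0.87 (SE, adjusted p = 1.00 by edgeR). Exons of Mars and Gm4189 overlap 4.7% of the exon length of Ddit3. The strand-specific count columns together hold 1.377 times its unstranded count, and its log2 fold change there was 0.02 and 0.33.

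Xbp1 and several ER chaperones are also high in plasma cells, so a marker list of those cells was read beside them. Of its 9 genes other than Xbp1, 6 had no read in any library, among them Sdc1, Jchain, Mzb1 and Tnfrsf17. The summed level of the 9 was 27.5 and 4.23 CPM in libraries labelled Themis1-deleted, against 43.6 and 44.5 CPM in the Vav1R63W libraries. It came from Irf4, Prdm1 and Igkc, of which Irf4 and Prdm1 are also expressed by activated regulatory T cells. Irf4 was at 27.5 and 1.00 CPM in libraries labelled Themis1-deleted, against 39.8 and 19.7 CPM in the Vav1R63W libraries. Its lowest library was the one lowest for Hspa5 and P4hb, and for 34.8% of all tested genes. The part of Irf4-expressing cells in those levels was not tested. In such bulk samples fewer cells of a type and less RNA per cell cannot be told apart.

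**Figure D4:**
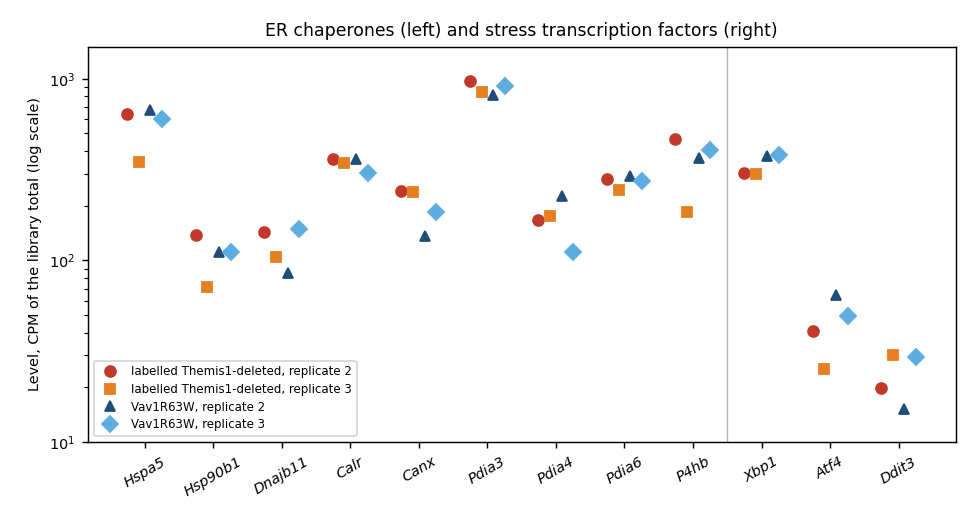
Levels of the 9 ER chaperones and the 3 stress transcription factors in each library, as CPM of the library total on a log scale; circles and squares are the libraries labelled Themis1-deleted, triangles and diamonds the Vav1R63W libraries. The square (labelled Themis1-deleted, replicate 3) lies lowest for Hspa5 (347 CPM) and P4hb (184 CPM). Both libraries labelled Themis1-deleted lie lower for Xbp1 and higher for Canx.

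Which members DESeq2 called depended on the library left out, a check chosen after seeing the data. With replicate 2 of the Themis1-deleted label left out it called 4 members, on a background of 20.2% of 10672 genes. They were Hspa5 (log2 fold change -0.83), P4hb (-1.03), Hsph1 (-2.01) and Hspe1 (0.62). The comparison then rests on replicate 3 of that label, which has no Themis read and has reads for the fewest genes of all libraries (10809). With replicate 3 of that label left out it called 2 members, Hsp90aa1 (-0.72) and Hspd1 (0.60), where 8.26% of 10670 genes were called. Without Vav1R63W replicate 2 it called Hspa4 (1.24), Hspa8 (-0.40), Cct2 (-0.72) and Cct6a (0.63), where 6.12% of 10256 genes were called. Without Vav1R63W replicate 3 it called Canx (0.85), where 4.04% of 10257 genes were called. No member was called in more than 1 of these 4 fits, each of which takes the spread of a lone library from the other group, and edgeR called no member and no gene in any of the same 4.

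Genes that work with the chaperones were read from fixed lists, and edgeR called none of them. Of 34 co-chaperones of HSP70 and HSP90, 31 were tested, with 11 positive and 20 negative log2 fold changes and a median of -0.21, beside 0.00 over all tested genes. At an unadjusted p under 0.05 there were 2 of them, Bag1 and Sugt1, against 4.98% of all tested genes, and DESeq2 called 0. Bag1, an exchange factor of HSP70, was at 165 and 177 CPM in libraries labelled Themis1-deleted, against 271 and 303 CPM in the Vav1R63W libraries. The groups did not overlap, and the log2 fold change was -0.72 ± 0.19 (SE). The adjusted p was 0.900 by edgeR, 0.302 by DESeq2 and 0.0184 in the authors' deposited table. That table thus called Bag1, where it called 1.56% of all genes with an adjusted p. Sugt1, a co-chaperone of HSP90, was at 118 and 103 CPM in libraries labelled Themis1-deleted, against 167 and 203 CPM in the Vav1R63W libraries, a log2 fold change of -0.72 ± 0.25 (SE, adjusted p = 0.958 by edgeR).

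Of 42 sensors and targets of the unfolded protein response, 39 were tested, with 24 positive and 15 negative log2 fold changes and a median of 0.12. At an unadjusted p under 0.05 there was 1, Atf6, against 4.98% of all tested genes. DESeq2 also called Atf6, on a background of 1.92% of genes, and the authors' deposited table did not. Atf6, the membrane-bound sensor whose released fragment binds ERSE, had 0 and 2 reads in the libraries labelled Themis1-deleted, against 308 and 145 reads in the Vav1R63W libraries. The ratio of summed reads, scaled by library totals, was 0.00419 (95% exact binomial interval 0.000506 to 0.0152, covering counting error only). Its adjusted p was 0.958 by edgeR, 0.00913 by DESeq2 and 0.294 in the authors' deposited table. The ERSE-bearing members beside it lay on both sides of 0, as described above. Dnajb9, a J protein of the ER, had 84 and 164 reads in the libraries labelled Themis1-deleted, against 2 and 9 in the Vav1R63W libraries (adjusted p = 1.00 by edgeR).

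Of 23 targets and kinases of the integrated stress response, the ATF4 arm, 17 were tested, with 10 positive and 7 negative log2 fold changes and a median of 0.05. None was under an unadjusted p of 0.05 by edgeR, and DESeq2 called 0. Shmt2, a mitochondrial enzyme of folate metabolism and a target of ATF4, was at 136 and 66.9 CPM in libraries labelled Themis1-deleted, against 195 and 245 CPM in the Vav1R63W libraries. Its groups did not overlap, with a log2 fold change of -1.11 ± 0.42 (SE, adjusted p = 1.00 by edgeR). Eif2ak1, a kinase of eIF2 alpha, was at 32.2 and 72.6 CPM in libraries labelled Themis1-deleted, against 111 and 84.2 CPM in the Vav1R63W libraries.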

How the data were processed

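Per the submitters' processing notes and the design text, FastQC and MultiQC checked the reads, Trim Galore trimmed them and STAR aligned them, with no version given. Ensembl release 90 is named in the design text and the build mm9 in the notes. The deposited files hold raw read counts per gene, without strand and per strand, as the authors' aligner wrote them. The authors' deposited table adds a fold change (a ratio), a log2 fold change, p-values and adjusted p-values from DESeq2, per the file headers and design text. Its normalized values, counts over DESeq2 size factors rounded by the authors and held here as scores, were not used. The unstranded counts, equal to that table for all 52636 genes, were used. Summary lines (22.6% and 23.1% of reads in the libraries labelled Themis1-deleted, 21.1% and 21.5% in Vav1R63W) were left out of library sizes. Symbols were matched for 52403 gene IDs; coordinates, exons and transcript lengths are from GENCODE M21 (GRCm38), sequences from RefSeq.

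Groups and replicate numbers come from the titles. The members, lists and tests were chosen with earlier results of these data known. The whole table was fitted in R 4.3.3 with edgeR 4.0.16 (TMM, filterByExpr with a minimum count of 10 and total of 15, robust quasi-likelihood F test, two-sided, no block) and adjusted by Benjamini-Hochberg over all genes tested; the script was tested on simulated data. Levels are CPM (reads per megaread of the library total), and SEs are log2 fold changes divided by the root of F. Exact permutation of 2 against 2 libraries cannot go below p = 0.333, so no single value was tested alone. Alternatives were DESeq2 1.42.0, limma-voom (limma 3.58.1), DESeq2 size factors, library totals, other count filters (none, or 1 CPM in 2 libraries), strand columns, a replicate block and leaving out each library. Repeats of a transcript are its 75-base windows found in transcripts of other genes. Members given in full are those whose groups do not overlap at 10 CPM or more (the first 12 by p), the highest of each role, and Hspa1a, Hspa1b, Hspa5, Hspa8, Xbp1, Ddit3 and Atf4. Of each further list the 2 genes with the smallest p are named.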

Additional observations from a re-analysis of the deposited data

How the results depend on the processing

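DESeq2 in place of edgeR raised the genes called to 206 and left the members called at 0. With each library left out in turn, genes called were 0 with edgeR in each fit and 2161, 881, 628 and 414 with DESeq2 (without replicates 2 and 3 of the Themis1-deleted label, then of Vav1R63W), members called ranged from 0 to 4, and the median log2 fold change of the members from -0.084 to -0.019, against 0.04 with all libraries. Members whose sign turned when a library was left out numbered 17 of 34, and their log2 fold changes ran from -0.17 to 0.22 for Cct5, -0.086 to 0.19 for Cct7, -0.24 to 0.77 for Ddit3, -0.27 to 0.58 for Dnajb11, -0.23 to 0.33 for Dnajb6, -0.61 to 0.31 for Hsp90b1, -7.24 to 9.15 for Hspa1b, -0.26 to 1.23 for Hspa4, -0.83 to 0.00065 for Hspa5, -0.40 to 0.071 for Hspa8, -0.34 to 1.06 for Hspa9, -0.042 to 0.60 for Hspd1, -0.065 to 0.62 for Hspe1, -2.01 to 0.42 for Hsph1, -1.03 to 0.27 for P4hb, -0.013 to 0.21 for Pdia3 and -0.36 to 0.62 for Pdia4. The other 17, Hsp90aa1, Cct2, Cct3, Cct4, Cct6a, Tcp1, Canx, Xbp1 and Dnaja1 among them, kept their sign. Where the groups do not overlap, as for all those named, the kept sign largely follows from that and adds no support. In the first strand column Dnajb6 was at -0.065 and Hsp90b1 at 0.011, and in the second strand column Hsp90b1 was at 0.049; the cause was not tested. Same-numbered libraries did not deviate together (r = 0.018 over 10216 genes), so the numbers were not taken as pairs; with the replicate block 0 genes and 0 members were called and the median was 0.05. Of 72 group means of members, 66 stayed within 1 SD when CPM was scaled by TMM. With 2 libraries per group, low genes were compared with wide errors (Hspb1 and Hspa1b with SEs of 2.56 and 3.53), and Hspa1a and Bag3 fell below the filter on low counts.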

Other observations

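Of 14 genes of mitochondrial protein folding and import outside the 36, all 14 were tested, with 4 positive and 10 negative log2 fold changes and a median of -0.30, beside 0.00 over all tested genes. None was called by edgeR or DESeq2, and none was under an unadjusted p of 0.05. Timm44, the anchor of mitochondrial HSP70 at the inner membrane, was at 13.2 and 20.3 CPM in libraries labelled Themis1-deleted, against 51.8 and 34.5 CPM in the Vav1R63W libraries, a log2 fold change of -1.33 ± 0.72 (SE, adjusted p = 1.00 by edgeR). Tomm70a, an import receptor that takes preproteins from HSP70 and HSP90, was at 55.3 and 77.7 CPM in libraries labelled Themis1-deleted, against 88.5 and 87.3 CPM in the Vav1R63W libraries. The groups did not overlap for either gene, where 18.7% of all tested genes were lower in this way.

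Prefoldin hands nascent actin and tubulin to CCT. Of 11 genes of prefoldin and CCT assembly, 10 were tested, with 5 positive and 5 negative log2 fold changes and a median of 0.00. Pfdn6, a prefoldin subunit, was at 94.6 and 86.4 CPM in libraries labelled Themis1-deleted, against 136 and 115 CPM in the Vav1R63W libraries. Pdcl, which assists assembly of G protein beta subunits with CCT, was at 60.1 and 50.6 CPM in libraries labelled Themis1-deleted, against 74.7 and 80.5 CPM in the Vav1R63W libraries. In a list of 10 heat shock factors and genes linked to heat shock proteins, 7 were tested. Not all of them regulate the heat shock response. The log2 fold changes were positive for 5 and negative for 2, with a median of 0.13. The leading genes there, Hspb11 (48.3 and 14.3 CPM in libraries labelled Themis1-deleted, against 17.8 and 11.4 CPM in the Vav1R63W libraries) and Hspbp1 (178 and 217 CPM, against 170 and 178 CPM), overlapped. Neither list held a gene called by edgeR or DESeq2 or under an unadjusted p of 0.05.

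Immediate early genes rise when cells are handled during isolation. The summed level of 12 of them was 1858 and 2087 CPM in libraries labelled Themis1-deleted, against 1737 and 1886 CPM in the Vav1R63W libraries, and the groups overlapped. Fos was at 181 and 210 CPM in libraries labelled Themis1-deleted, against 89.8 and 329 CPM in the Vav1R63W libraries, whereas Atf3 had no read in any library.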
